A study of Mus musculus with 24 samples.

Results

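The RNA of 10 mouse genes that encode signalling proteins of white blood cells was followed in embryonic liver cells that had lost the chromatin remodelers CHD4, BRG1 or both from their endothelium. The genes are Ptprcap, Laptm5, Il10ra, Il1rl1, Samsn1, Sh2d2a, Plcg2, Alox5, Fmnl1 and Ccdc88b, 10 of the 25361 genes in the table. They were chosen by their values, as leukocyte signalling genes with more transcripts in CHD4-deficient or doubly deficient liver sinusoidal endothelial cells (LSECs) than in control LSECs. That difference is therefore described here and not tested. The values are in TPM, a measure of transcript abundance that corrects for gene length and gives every library the same total. Levels of different genes can therefore be compared in TPM, but the number of reads behind each of them is not given.

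RNA had been sequenced from 24 libraries of liver cells of E12.5 mouse embryos. CD146-positive cells are called LSECs (12 libraries) and the cells left after CD146 selection are called nonEC cells (12 libraries). Each fraction held 3 libraries of each of 4 genotypes, from separate embryos of either sex on a mixed genetic background. Control embryos carried no Cre but at least 1 floxed allele of both Brg1 and Chd4. Chd4-ECko embryos were Chd4 fl/fl with 1 floxed Brg1 allele and the VE-cadherin-Cre transgene, and Brg1-ECko embryos were Brg1 fl/fl with 1 floxed Chd4 allele and the same transgene. Brg1/Chd4-ECdko embryos were fl/fl for both genes and carried it too. VE-cadherin-Cre deletes floxed exons in endothelial cells, but it is also active in some blood cells. The liver of this stage is the main site of blood formation, and in bulk fractions more cells of a type and more RNA per cell cannot be told apart.

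The libraries matched their fractions by endothelial markers. The summed TPM of 9 endothelial genes was 902 to 1859 in LSEC libraries and 29.3 to 65.3 in nonEC libraries. LSEC libraries also held macrophage transcripts, with a sum over 12 macrophage genes of 594 to 1358 TPM against 113 to 419 TPM in nonEC libraries. They held stellate and mesenchymal transcripts too, with a sum over 6 genes of 452 to 700 TPM against 11.9 to 42.3 TPM. Hepatoblast transcripts were present in both fractions, with a sum over 6 genes of 3027 to 25510 TPM in LSEC and 15680 to 33600 TPM in nonEC libraries. Chd4 had 285, 255 and 246 TPM in control LSECs, 223, 169 and 252 TPM in Chd4-ECko LSECs and 242, 250 and 256 TPM in Brg1/Chd4-ECdko LSECs, so that the groups overlapped. Smarca4, which encodes BRG1, had 161, 144 and 134 TPM in control LSECs, 157, 111 and 127 TPM in Brg1-ECko LSECs and 131, 117 and 151 TPM in Brg1/Chd4-ECdko LSECs, again with overlap. TPM pool all exons of a gene, so that they check a deletion of some exons only in part. The LSEC library of Brg1-ECko replicate 1 stood apart, with 25510 TPM summed over 6 hepatoblast genes against 5769 and 6196 TPM in replicates 2 and 3. That of Chd4-ECko replicate 1 also differed from the others of its group, with 467 TPM over 12 pan-leukocyte genes against 713 and 711 TPM, 193 TPM over 10 megakaryocyte genes against 487 and 522 TPM and the highest mitochondrial share. Without it the median over the 10 genes in Chd4-ECko was 1.36 on the log2 scale, against 1.31 with it. The mitochondrial share of TPM was 13.9% to 31.5% in LSECs and 2.33% to 7.69% in nonEC cells.

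The proteins stand at successive steps between a receptor on a leukocyte and the response of the cell. Ptprcap binds the receptor phosphatase CD45, and Laptm5 is a lysosomal membrane protein that lowers antigen receptors on lymphocytes. Il10ra is the ligand-binding chain of the receptor for the anti-inflammatory cytokine interleukin-10, and Il1rl1 (ST2) is the receptor of the alarmin interleukin-33, well known from mast cells and type-2 lymphocytes. Samsn1 is an inhibitory adaptor of lymphocytes with SAM and SH3 domains, and Sh2d2a is an SH2-domain adaptor of T cells. Plcg2 is the phospholipase C that antigen and Fc receptors use to release calcium, and Alox5 is the lipoxygenase that starts leukotriene synthesis. Fmnl1 is a leukocyte formin that elongates actin filaments, and Ccdc88b is a microtubule-linked protein of leukocytes that acts in their activation and migration. CHD4 is the ATPase of the NuRD complex, which is mostly repressive, and BRG1 is an ATPase of SWI/SNF complexes.

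Since the 10 genes were higher together in CHD4-deficient LSECs, the 250 bases before their start sites were searched for core motifs of 3 blood cell factor families. The first motif, GAGGAA, is the core that PU.1 and other factors of the ETS family bind. The second motif, TGTGGT, is the core of sites for RUNX factors. The third motif, AGATAA, belongs to the family named after GATA1 and GATA2. Both strands were searched, before the start of the canonical transcript in GRCm39. GAGGAA was found for 3 of the 10 genes (Ptprcap, Samsn1 and Alox5), against 22.9% of 21770 promoters of protein-coding genes. AGATAA was found for 4 of the 10 (Il1rl1, Plcg2, Fmnl1 and Ccdc88b), against 9.6% of the promoters, and TGTGGT for 0 of the 10, against 13% of them. A match is a description of the letters and not a bound site. The windows are shown for a pair of genes with high LSEC ratios (Ptprcap and Alox5) and for both genes whose Chd4-ECko nonEC libraries all lay below the controls (Samsn1 and Il1rl1). They are written 5′ to 3′ on the strand of the gene, and capitals mark a match to a motif or to its reverse complement.
Ptprcap, chr19:4204355-4204604, plus strand: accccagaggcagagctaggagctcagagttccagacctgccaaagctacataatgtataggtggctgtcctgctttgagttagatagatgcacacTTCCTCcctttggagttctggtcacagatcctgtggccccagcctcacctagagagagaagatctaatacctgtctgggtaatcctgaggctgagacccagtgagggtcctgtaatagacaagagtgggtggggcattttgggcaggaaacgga
Alox5, chr6:116438140-116438389, minus strand: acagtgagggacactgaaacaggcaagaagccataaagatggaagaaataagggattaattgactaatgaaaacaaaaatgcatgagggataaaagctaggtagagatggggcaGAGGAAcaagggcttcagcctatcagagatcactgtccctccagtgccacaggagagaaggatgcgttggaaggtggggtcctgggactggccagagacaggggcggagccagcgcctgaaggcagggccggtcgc
Samsn1, chr16:75706199-75706448, minus strand: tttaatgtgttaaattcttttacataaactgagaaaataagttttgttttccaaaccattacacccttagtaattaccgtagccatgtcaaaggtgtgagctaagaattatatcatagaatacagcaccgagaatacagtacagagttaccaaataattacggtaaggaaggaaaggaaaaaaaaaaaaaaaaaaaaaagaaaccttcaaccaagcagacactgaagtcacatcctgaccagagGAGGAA
Il1rl1, chr1:40478537-40478786, plus strand: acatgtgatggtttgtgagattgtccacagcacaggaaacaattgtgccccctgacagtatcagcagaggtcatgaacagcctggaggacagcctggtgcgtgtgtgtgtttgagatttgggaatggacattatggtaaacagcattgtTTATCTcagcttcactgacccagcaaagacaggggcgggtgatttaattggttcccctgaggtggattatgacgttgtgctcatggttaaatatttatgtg

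All 10 genes had lower levels in control LSECs than in Chd4-ECko LSECs and, except Il1rl1, than in Brg1/Chd4-ECdko LSECs. In Chd4-ECko, 10 of 10 genes had all 3 mutant libraries above all 3 controls, and 8.7% of the 13444 genes tested did so. In Brg1/Chd4-ECdko, 9 of 10 did, and 20.8% of all genes tested. Nothing is read from either count, since these libraries chose the genes. The log2 fold change on the log2(TPM + 1) scale had a median over the 10 genes of 1.31 in Chd4-ECko, where the median of all genes tested was 0.01. In Brg1/Chd4-ECdko the median over the 10 was 1.55 and that of all genes 0.16, and relative to all genes it was 1.40. A pseudocount of 1 TPM understates the change of low genes, so ratios of mean TPM are given as well. Errors of fold changes are standard errors from limma's model of the fraction (12 libraries, 3 a group) or, between fractions, of all 24 libraries.

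**Figure D1:**
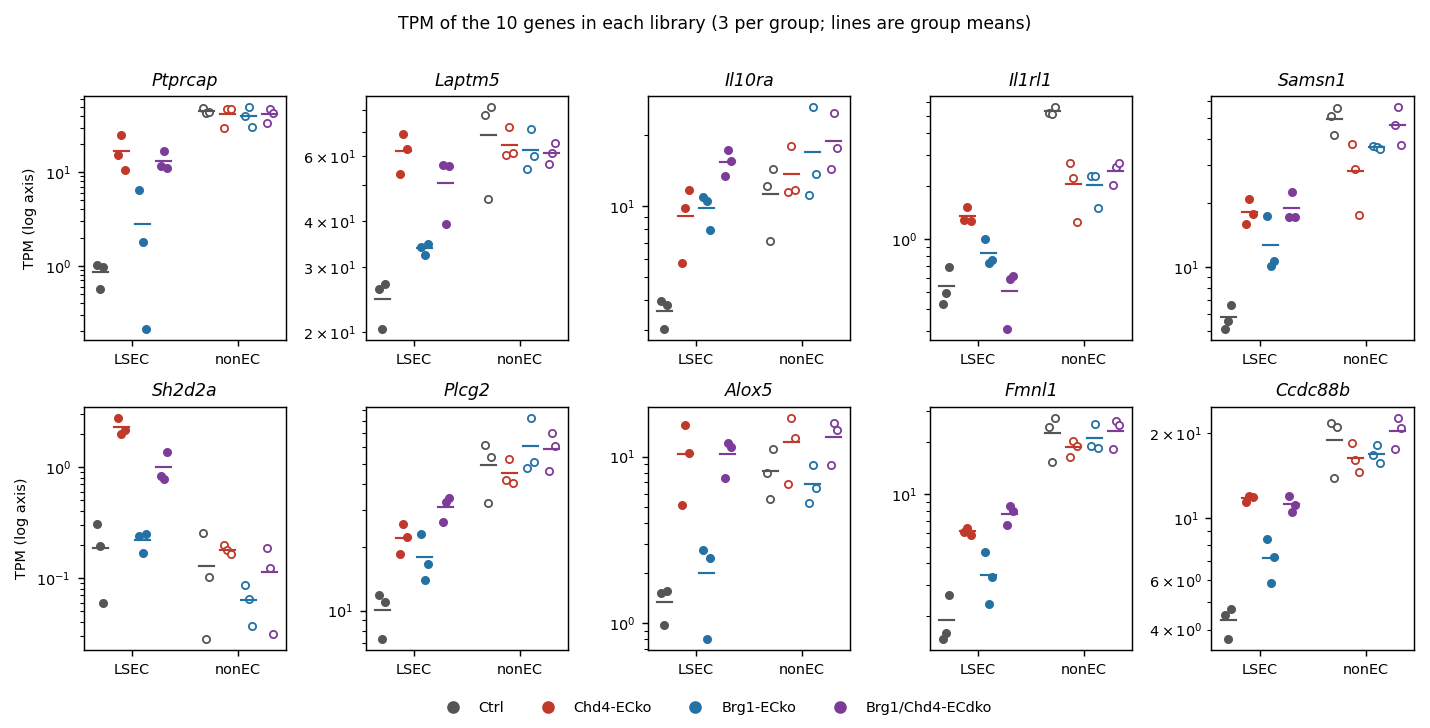
TPM of each of the 10 genes in the 24 libraries on a logarithmic axis, with filled points for LSEC and open points for nonEC libraries, coloured by genotype, and lines at the group means (n = 3). Control LSECs sit below Chd4-ECko LSECs in every panel, and Sh2d2a is the gene whose Chd4-ECko LSECs (1.99 to 2.78 TPM) lie above all nonEC libraries.

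Of the receptor-associated genes, Ptprcap differed the most. It had 1.02, 0.568 and 0.966 TPM in control LSECs, 15.2, 25.2 and 10.5 TPM in Chd4-ECko LSECs and 11.6, 17.0 and 11.1 TPM in Brg1/Chd4-ECdko LSECs. Its mean was 20.0 times the control mean in Chd4-ECko and 15.6 times in Brg1/Chd4-ECdko, with log2 fold changes of 3.21 ± 0.48 (SE) and 2.93 ± 0.48 (SE). The mutant libraries lay far above the controls in both groups and overlapped each other. The Ptprcap gene spans 4203603 to 4206750 on the plus strand of chromosome 19, and all 927 exon bases of its canonical transcript lie within exons of Rps6kb2 on the other strand, and strand use in the counting is not given in the sources used here. Reads of both genes may therefore not be told apart. Rps6kb2 itself had 8.28 to 11.9 TPM in control LSECs and 9.76 to 11.6 TPM in Chd4-ECko LSECs, without the difference seen for Ptprcap.

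Laptm5 (chromosome 4, 130638161 to 130663452, plus strand) was the most abundant of the 10 genes in LSECs. It had 26.2, 20.4 and 27.0 TPM in control LSECs, 53.8, 68.7 and 62.9 TPM in Chd4-ECko LSECs and 56.7, 39.3 and 56.3 TPM in Brg1/Chd4-ECdko LSECs. The means were 2.52 and 2.07 times the control, with log2 fold changes of 1.30 ± 0.16 (SE) and 1.01 ± 0.16 (SE). At 61.8 ± 7.50 TPM (SD, n = 3) the Chd4-ECko LSECs reached 90.5% of the mean of control nonEC cells, and the libraries of these 2 groups overlapped.

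The cytokine receptors Il10ra and Il1rl1 parted in the double mutant. Il10ra (chromosome 9, 45165132 to 45180563, minus strand) had 3.98, 3.03 and 3.84 TPM in control LSECs, 5.77, 9.80 and 11.7 TPM in Chd4-ECko LSECs and 13.3, 17.3 and 15.5 TPM in Brg1/Chd4-ECdko LSECs. Every double mutant library lay above every Chd4-ECko library, and the ratios to the control mean were 4.25 and 2.52. Il1rl1 (chromosome 1, 40468730 to 40504575, plus strand) had 0.427, 0.493 and 0.698 TPM in control LSECs and 1.29, 1.53 and 1.27 TPM in Chd4-ECko LSECs, 2.52 times the control mean. In Brg1/Chd4-ECdko it had 0.309, 0.595 and 0.618 TPM, which overlapped the controls and lay below every Chd4-ECko library. These levels are low, and the reads behind them are not given.

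The adaptors Samsn1 and Sh2d2a differed in level and in the size of their change. Samsn1 (chromosome 16, 75655681 to 75819169, minus strand) had 5.11, 5.61 and 6.67 TPM in control LSECs, 15.9, 20.9 and 17.8 TPM in Chd4-ECko LSECs and 17.2, 22.4 and 17.3 TPM in Brg1/Chd4-ECdko LSECs. Its ratios to the control mean were 3.14 and 3.27, and the mutant groups overlapped each other. Sh2d2a (chromosome 3, 87754062 to 87763111, plus strand) was close to absent from control LSECs, with 0.310, 0.192 and 0.0595 TPM. It had 2.78, 1.99 and 2.15 TPM in Chd4-ECko LSECs, 12.3 times the control mean, and 0.826, 0.787 and 1.37 TPM in Brg1/Chd4-ECdko LSECs, 5.31 times. The 3 groups did not overlap, and the double mutant lay between the others.

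Of the enzymes, Alox5 had a lower control level than Plcg2 and differed by a larger ratio. Alox5 (chromosome 6, 116387032 to 116438139, minus strand) had 1.51, 0.974 and 1.56 TPM in control LSECs, 5.15, 15.4 and 10.4 TPM in Chd4-ECko LSECs and 7.49, 12.1 and 11.4 TPM in Brg1/Chd4-ECdko LSECs. Its means were 7.68 and 7.66 times the control, with log2 fold changes of 2.17 ± 0.34 (SE) and 2.25 ± 0.34 (SE). Both mutant means exceeded that of control nonEC cells, at 126.1% and 125.9% of it, but the libraries overlapped. Plcg2 (chromosome 8, 118224988 to 118361881, plus strand) had 11.8, 7.30 and 11 TPM in control LSECs, 18.6, 25.9 and 22.5 TPM in Chd4-ECko LSECs and 26.3, 32.9 and 34.3 TPM in Brg1/Chd4-ECdko LSECs. It was 2.22 and 3.10 times the control mean, and each double mutant library lay above each Chd4-ECko library. Plcg2 and Alox5 share 158 and 81 exon bases with antisense long noncoding RNAs that the table does not list.

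The cytoskeletal genes Fmnl1 and Ccdc88b had closely spaced replicates in Chd4-ECko LSECs, at 6.11 ± 0.247 and 11.8 ± 0.310 TPM (SD, n = 3). Fmnl1 (chromosome 11, 103061480 to 103089731, plus strand) had 1.47, 1.59 and 2.64 TPM in control LSECs, 6.10, 6.36 and 5.86 TPM in Chd4-ECko LSECs and 6.64, 8.60 and 7.98 TPM in Brg1/Chd4-ECdko LSECs, with ratios of 3.22 and 4.08. It shares 229 exon bases with an unlisted antisense long noncoding RNA. Ccdc88b (chromosome 19, 6821991 to 6835586, minus strand) had 4.52, 3.69 and 4.74 TPM in control LSECs, 11.4, 12.0 and 11.9 TPM in Chd4-ECko LSECs and 12.0, 10.5 and 11.2 TPM in Brg1/Chd4-ECdko LSECs. Its ratios were 2.73 and 2.59, and the mutant groups overlapped each other.

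**Figure D2:**
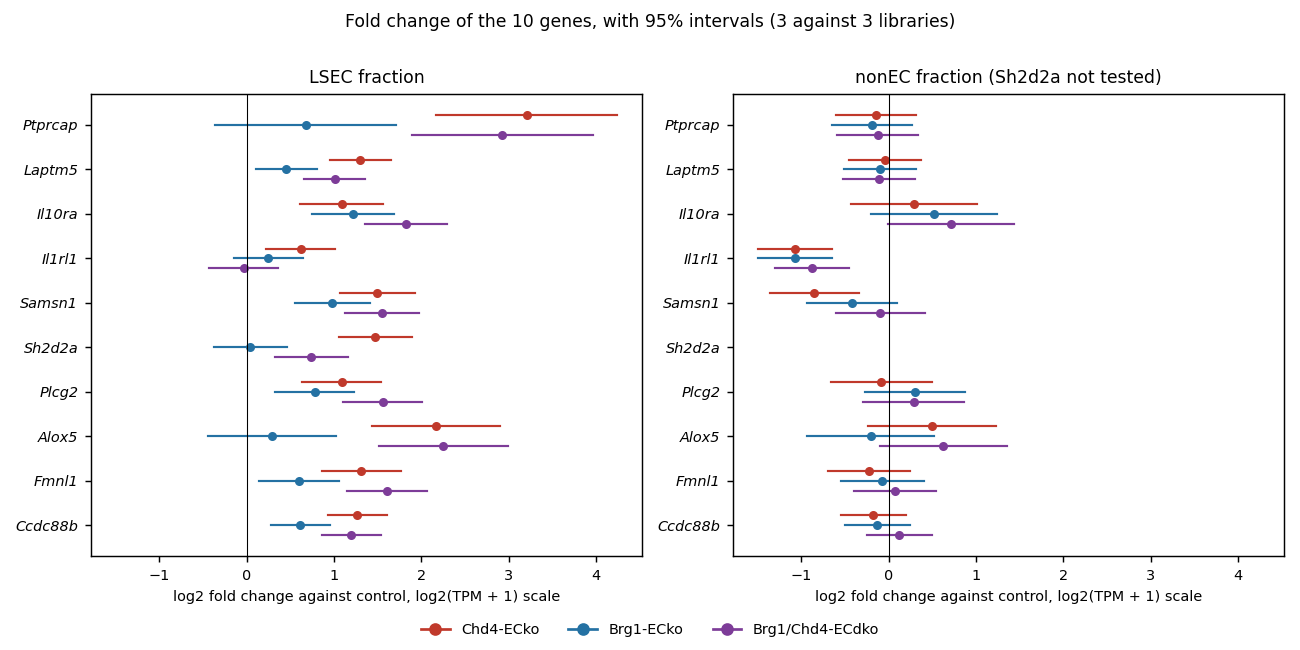
Log2 fold change of each gene against control on the log2(TPM + 1) scale in the LSEC fraction (left) and the nonEC fraction (right), with 95% intervals from limma, 3 against 3 libraries. In LSECs the Chd4-ECko points run from 0.62 (Il1rl1) to 3.21 (Ptprcap), and in nonEC cells the Il1rl1 points lie near -1 in all 3 genotypes.

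Set side by side, Brg1/Chd4-ECdko and Chd4-ECko LSECs had non-overlapping values at some of the genes, in both directions. The double mutant lay above without overlap for 3 of the 10 genes and below for 2. Over all 13444 genes tested this held for 1835 and 302. The median difference over the 10 was -0.01 on the log2 scale, and relative to the median of all genes (0.13) it was -0.14. The double mutant was higher without overlap for Il10ra (0.74, 95% interval 0.27 to 1.21), Plcg2 (0.47, 0.02 to 0.92) and Fmnl1 (0.29, -0.17 to 0.75). It was lower without overlap for Sh2d2a (-0.73, -1.15 to -0.32) and Il1rl1 (-0.65, -1.05 to -0.26). Relative to the median of all genes these differences were 0.61, 0.34, 0.16, -0.87 and -0.78. For Ptprcap, Alox5, Laptm5, Samsn1 and Ccdc88b the libraries of these 2 groups overlapped. Both groups were used to choose the genes, so the intervals describe the spread between libraries and are not a test.

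In Brg1-ECko, where 1 Chd4 allele is floxed as well, the differences in LSECs are given as a description. The genes were chosen for low values in these same control libraries, which favours higher values in any other group, so counts and p-values of this comparison are descriptions and nothing is read from them. Called were 0 of 10 genes (adjusted p under 0.05 and a log2 fold change over 1 in size), and 0.0149% of all genes tested were. At an unadjusted p under 0.05 there were 6 of 10, and 9.69% of all genes. The log2 fold changes were all above 0, with a median of 0.61 where that of all genes was 0.08, although Sh2d2a, at 0.04, lay below the median of all genes. Beside them, in Brg1-ECko LSECs, the mean endothelial sum was 0.692 times the control (0 of 9 genes on the higher side) and hepatoblast genes had a median of 1.10 (6 of 6 on the higher side). On the higher side were also 10 of 12 pan-leukocyte and 10 of 11 macrophage genes, and 8760 of all 13444 genes, and the part of these cells was not tested. In 6 of 10 genes all 3 Brg1-ECko libraries lay above the controls, against 10.9% of all genes tested. Il10ra had 10.9, 10.5 and 7.94 TPM in Brg1-ECko LSECs, 2.71 times the control mean and close to its level in Chd4-ECko, with a log2 fold change of 1.22 ± 0.22 (SE, limma adjusted p = 0.115). Samsn1 had 17.4, 10.2 and 10.7 TPM (0.98 ± 0.20 (SE), limma adjusted p = 0.163). Ptprcap had 6.47, 1.81 and 0.210 TPM, the widest spread of the 10 relative to its mean, and Alox5 had 2.75, 0.798 and 2.46 TPM, so that both overlapped the controls. Sh2d2a had 0.237, 0.167 and 0.249 TPM. Brg1-ECko replicate 1, the library with the high hepatoblast sum, had the highest value of its group for 8 of the 10 genes. Without it the median was 0.43, the lowest adjusted p was 0.185 and the remaining libraries lay above the controls for 6 of 10 genes, and Ptprcap moved from 0.68 to 0.004.

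In nonEC cells, most of the 10 genes were at higher levels than in LSECs, and their levels in mutants and controls mostly overlapped. Sh2d2a had at most 0.252 TPM in any nonEC library and did not pass the filter of 1 TPM in 3 libraries, which left 9 genes tested. The exceptions were Il1rl1 and, in Chd4-ECko and Brg1-ECko, Samsn1. Il1rl1 had 5.17, 5.13 and 5.58 TPM in control nonEC cells, 2.69, 2.22 and 1.25 TPM in Chd4-ECko and 2.29, 2.27 and 1.495 TPM in Brg1-ECko. In the double mutant it had 2.03, 2.55 and 2.70 TPM, so that all 9 mutant libraries lay below all 3 controls.

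In Chd4-ECko nonEC cells, 1 of 9 genes was called, against 0.884% of all genes tested, and this was Il1rl1, lower by a log2 fold change of -1.07 ± 0.19 (SE, limma adjusted p = 0.0102). Samsn1 had 51.4, 41.6 and 56.0 TPM in control and 38.0, 28.8 and 17.6 TPM in Chd4-ECko nonEC cells, a log2 fold change of -0.85 ± 0.23 (SE, limma adjusted p = 0.0455) that did not reach the fold threshold. For these 2 of 9 genes all mutant libraries lay below all controls, as for 11.6% of all genes tested. The call of Il1rl1 was lost without Chd4-ECko replicate 3 (-0.87) and when the 2 groups were fitted alone (adjusted p = 0.0742), and Samsn1 was called without Chd4-ECko replicate 1 (-1.09). In Brg1-ECko nonEC cells Il1rl1 was again the 1 gene called (-1.07 ± 0.19 (SE), limma adjusted p = 0.0057), against 1.37% of all genes tested, and the call was lost without Brg1-ECko replicate 3 (-0.94). Samsn1 was at -0.42 ± 0.23 (SE, limma adjusted p = 0.256). All Brg1-ECko libraries lay below the controls for 2 of 9 genes, as for 2204 of all 12223 genes tested. In Brg1/Chd4-ECdko nonEC cells 0 of 9 were called by limma, against 0.115% of all genes, and 1 of 9 had an unadjusted p under 0.05, against 11.7% of all genes. Il1rl1 was there at -0.88 ± 0.19 (SE, limma adjusted p = 0.0632). It was the 1 of 9 genes with all libraries of this genotype below the controls, as for 979 of all 12223 genes. The 3 comparisons share their control libraries.

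Il1rl1 is a gene of mast cells, and mast cell transcripts were measured beside it. Cpa3, a mast cell protease, had 11.4, 4.51 and 17.9 TPM in control nonEC cells and 1.72, 2.71 and 2.28 TPM in Chd4-ECko. It had 2.67, 4.76 and 7.59 TPM in Brg1-ECko nonEC cells, and in the double mutant 5.91, 4.05 and 3.26 TPM. Cpa3 was lower in Chd4-ECko (log2 fold change -1.76 ± 0.42 (SE), limma adjusted p = 0.0291). The sum over 10 mast cell and basophil genes was 8.09 to 33.9 TPM in control nonEC cells, 7.05 to 7.73 TPM in Chd4-ECko, 7.003 to 14.8 TPM in Brg1-ECko and, with both genes deleted, 10.9 to 12.8 TPM. Of these 10 genes 3 passed the filter (Cpa3, Ms4a2 and Hdc), and Fcer1a was at 0 in all 12 nonEC libraries. The hepatoblast sum was 15680 to 17500 TPM in control nonEC cells, 23280 to 32230 TPM in Chd4-ECko and 22730 to 33600 TPM in Brg1-ECko, and its mean in the double mutant was 1.39 times that of the control. The mean erythroid sum was 0.946 times the control in Chd4-ECko, 0.489 times in Brg1-ECko and 0.568 times in the double mutant. In Chd4-ECko the libraries had 2430, 3140 and 7726 TPM. The third of these, replicate 3, also had the lowest mitochondrial share (2.33%), and the Il1rl1 call was lost without it. Genes of neutrophils and their progenitors had a median of -0.71 in Chd4-ECko nonEC cells. Of these, 0 of 9 were on the higher side, where 6191 of all 12223 genes were. The mean stellate and mesenchymal sum was 1.81 times the control there, and the macrophage sum 1.35 times. The part of these transcripts in the Il1rl1 result was not tested.

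**Figure D3:**
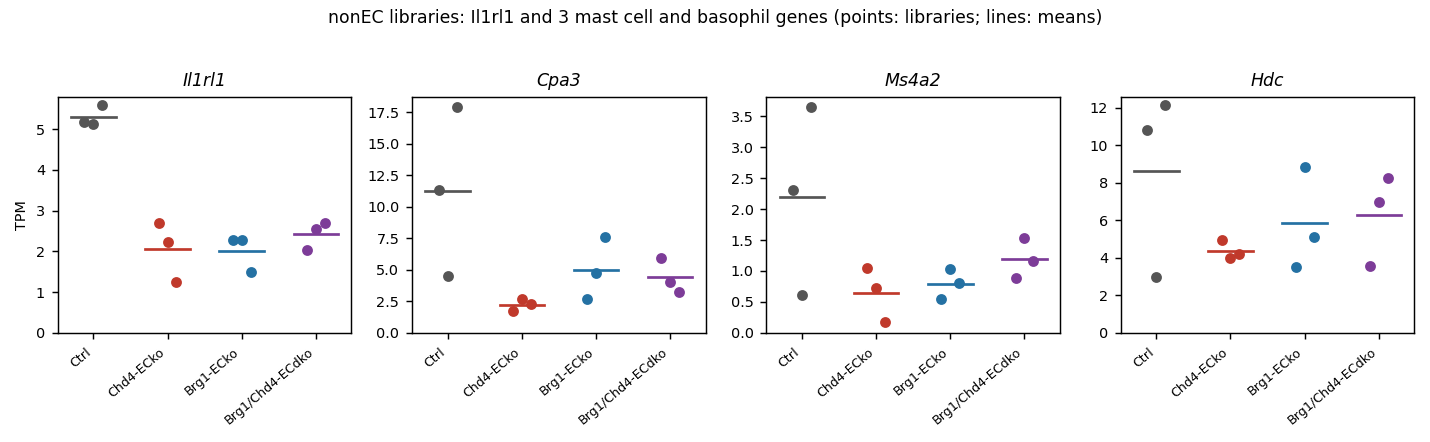
TPM of Il1rl1 and of the mast cell and basophil genes Cpa3, Ms4a2 and Hdc in nonEC libraries of the 4 genotypes (points are libraries, lines are means, n = 3). The Il1rl1 controls (5.13 to 5.58 TPM) lie close together and above all mutants, whereas the control points of the other genes are spread and overlap some mutants.

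The order of levels across the 8 groups placed LSEC controls at or near the bottom for most genes. The genes were chosen for values above those of control LSECs, so nothing is read from the place of the controls among the LSEC groups. For Ptprcap, Il1rl1, Samsn1, Plcg2, Fmnl1 and Ccdc88b every LSEC group mean lay below every nonEC group mean. For Alox5 and Laptm5 the Chd4-ECko and double mutant LSECs overlapped nonEC libraries, and for Il10ra Brg1-ECko LSECs did as well. Against the nonEC cells of their own genotype, the double mutant LSECs lay just below for Laptm5 (highest 56.74 against lowest 57.03 TPM). Brg1-ECko LSECs lay below every nonEC library for Alox5 and Laptm5. For Il1rl1 the lowest means were those of Brg1/Chd4-ECdko and control LSECs, which overlapped, and the highest was that of control nonEC cells. Sh2d2a was the reverse of the others, with its lowest means in nonEC cells and its highest in Chd4-ECko LSECs.

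The comparison of fractions was tested within Brg1-ECko, whose libraries were not used to choose the genes. Of all 13775 genes tested there, 1138 were called lower in LSECs than in nonEC cells and 2525 higher, which is 26.6% in either direction. Of the 10 genes, 6 were called lower in LSECs and 0 higher. They were Ptprcap (-3.77 ± 0.41 (SE), limma adjusted p = 1.49e-07), Fmnl1 (-2.33), Plcg2 (-1.68), Samsn1 (-1.49), Alox5 (-1.43) and Ccdc88b (-1.14), with limma adjusted p from 1.29e-08 for Fmnl1 to 0.00177 for Alox5. Laptm5 (-0.86, limma adjusted p = 0.000361) and Il1rl1 (-0.71, limma adjusted p = 0.000952) did not reach the fold threshold, but Il1rl1 was called with a pseudocount of 0.1 TPM (-1.17) and with quantile normalization (-1.35). Il10ra had an adjusted p of 0.0544 by limma (-0.66). The values of this comparison come from a model that did not pair same-numbered LSEC and nonEC libraries. With a block of these pairs 6 of the 10 genes were called as well. Sh2d2a differed by 0.20 (95% interval -0.09 to 0.48), which is a description only. It entered the model through Chd4-ECko and double mutant LSECs, and had at most 0.249 TPM in the Brg1-ECko libraries compared. Nothing is read from its place among the 10 genes here. In controls, as a description, 9 of 10 genes were lower in LSECs, by -1.36 for Il10ra to -4.64 for Ptprcap.

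Other genes of the same pathways were counted from 7 lists with 129 genes, of which 128 are in the table and 113 were tested in each fraction. In Chd4-ECko LSECs 8 were called higher and 0 lower, against 0.521% of all genes called. The median log2 fold change over the 113 was 0.27. In Brg1/Chd4-ECdko LSECs 4 were called higher and 0 lower, against 0.565% of all genes, with a median of 0.37. In Brg1-ECko LSECs 0 were called by limma (0.0149% of all genes), with 30 of 113 at an unadjusted p under 0.05 (9.69% of all genes). In Chd4-ECko nonEC cells 0 were called (0.884% of all genes), with 29 of 113 at an unadjusted p under 0.05, where 33.9% of all genes were. In Brg1-ECko nonEC cells 1 was called higher, Sigirr (1.05, limma adjusted p = 0.00133), an inhibitory receptor of the interleukin-33 list that was named after its values were seen. Over all genes 1.37% were called there, so nothing is read from this count. The count in Chd4-ECko LSECs was 5, 4, 4 and 3 without control replicates 1 and 2 and without Chd4-ECko replicates 2 and 3, and 17 without Chd4-ECko replicate 1. The count in Brg1/Chd4-ECdko LSECs was 1 without control replicate 2 and 1 without Brg1/Chd4-ECdko replicate 3. It was also 1 with quantile normalization, and 9 without a fold threshold.

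The calls were in the lists of the actin cytoskeleton, the receptor-proximal kinases and the transcription factors. Of 21 actin genes 4 rose in Chd4-ECko LSECs and 3 in Brg1/Chd4-ECdko LSECs. Was, the Wiskott-Aldrich protein that starts actin branching, had 14.7, 14.4 and 16 TPM in control LSECs, 28.0, 38.5 and 38.8 TPM in Chd4-ECko LSECs and 33.8, 37.1 and 35.7 TPM in Brg1/Chd4-ECdko LSECs, with log2 fold changes of 1.16 (limma adjusted p = 0.00346) and 1.19 (limma adjusted p = 0.00426). Rac2, the blood cell member of the Rac GTPases, rose by 1.22 and 1.13, and Nckap1l, the leukocyte subunit of the WAVE complex, by 1.22 and 1.12. Dock2, the exchange factor of Rac in leukocytes, rose by 1.10 in Chd4-ECko and was at 0.98 in Brg1/Chd4-ECdko, under the fold threshold. Of 26 receptor-proximal genes 3 rose in Chd4-ECko, among them the phosphatase Ptpn6 (1.17, limma adjusted p = 0.00337) and the exchange factor Vav1 (1.16), and Vav1 (1.01) rose in Brg1/Chd4-ECdko. Of 17 transcription factors 1 rose in Chd4-ECko, the myeloid factor Spi1 (PU.1), from 9.45, 7.74 and 12.2 TPM to 15.4, 23.4 and 28.7 TPM (1.10, limma adjusted p = 0.0351). Lmo2, the most abundant factor of the list, was at 0.54 (limma adjusted p = 0.365). Ptprc, which encodes the CD45 that Ptprcap binds, had 6.59, 5.26 and 8.38 TPM in control LSECs and 10.3, 14.3 and 17.0 TPM in Chd4-ECko (0.94, limma adjusted p = 0.0549).

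**Figure D4:**
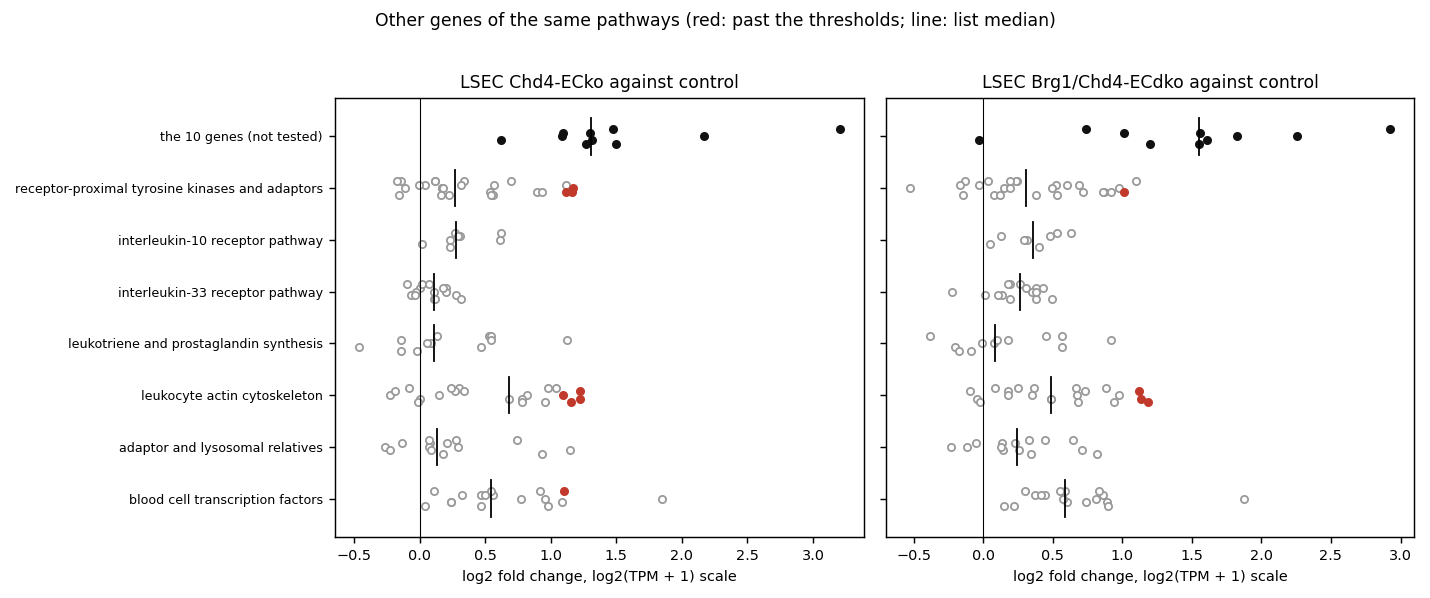
Log2 fold changes on the log2(TPM + 1) scale of the 10 genes (black, not tested) and of the other genes of 7 pathway lists in Chd4-ECko and Brg1/Chd4-ECdko LSECs against control. Red points passed the thresholds (8 and 4 genes), open points did not, and vertical lines are list medians.

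None of the listed partners of the cytokine receptors and of Alox5 was called by limma in LSECs, in Chd4-ECko or in the double mutant. Over all genes 0.521% and 0.565% were called there. In lists of this size 0 calls lie near these shares, and nothing is read from them. Of 8 tested genes of the interleukin-10 receptor pathway, 8 were on the higher side in Chd4-ECko, where 6932 of all 13444 genes were, and 5 had all mutant libraries above all controls, where 8.7% of all genes did. Their median log2 fold change was 0.28, beside 0.01 over all genes. In the double mutant the same counts were 8 and 5 of 8, but 10315 of all 13444 genes were on the higher side and 20.8% had all mutant libraries above all controls, and the median was 0.36, beside 0.16 over all genes. Jak1 was at 0.02 and Stat3 at 0.30 in Chd4-ECko LSECs, and Il10rb, the second chain of the receptor, at 0.31 (limma adjusted p = 1.00). Among 15 tested genes of the interleukin-33 receptor pathway 0 were called there, and 11 were on the higher side (median 0.11). Tab2 was at -0.03 and Map3k7 at -0.06. Il33, the ligand, had 4.08 to 5.35 TPM in control LSECs and 5.24 to 7.04 TPM in Chd4-ECko LSECs, and the coreceptor Il1rap had 2.63 to 3.81 TPM and 2.48 to 3.86 TPM. Among 12 tested genes of leukotriene and prostaglandin synthesis 0 were called, and 8 were on the higher side (median 0.11). Lta4h, which makes leukotriene B4, was at -0.14 and Ptgs1 at 0.54 (limma adjusted p = 0.341). Alox5ap, the protein that presents substrate to Alox5, had 6.72, 4.61 and 6.11 TPM in control LSECs and 7.79, 18.5 and 17.5 TPM in Chd4-ECko LSECs (1.12, limma adjusted p = 0.0811), with every mutant library above every control. Among 14 tested adaptor and lysosomal relatives 0 were called and 11 were on the higher side (median 0.13), with Nedd4 at -0.22 and Laptm4a at -0.13. Il10rb, Il33, Il1rap, Alox5ap and Ptprc are named for their roles and were picked after their values were seen.

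Broadly expressed relatives of 3 of the 10 genes, also named after their values were seen, had higher levels than these in control LSECs. Their means were not higher in Chd4-ECko LSECs. Fmnl2 and Fmnl3, formins related to Fmnl1, had means of 17.0 ± 1.88 and 40.5 ± 3.43 TPM (SD, n = 3) in control LSECs and 16.1 ± 2.71 and 35.6 ± 4.29 TPM (SD, n = 3) in Chd4-ECko LSECs, against 1.90 ± 0.644 and 6.11 ± 0.247 TPM (SD, n = 3) for Fmnl1. Ccdc88a, a relative of Ccdc88b, had 29.0 ± 4.80 and 24.4 ± 2.14 TPM (SD, n = 3). Laptm4a, a relative of Laptm5, had 323.8 ± 26.7 and 296.7 ± 46.8 TPM (SD, n = 3). None of the 4 relatives was called by limma in an LSEC comparison with the control. At most 0.565% of all genes were called in these comparisons, so nothing is read from this.

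Pan-leukocyte, macrophage and mast cell and basophil markers had higher mean sums beside the 10 genes in Chd4-ECko and double mutant LSECs, and the other blood cell lists varied. The summed TPM of 12 pan-leukocyte genes was 355 to 478 in control LSECs, 467 to 713 in Chd4-ECko and 518 to 580 in Brg1/Chd4-ECdko. Of the 12 genes, 11 were on the higher side in Chd4-ECko, and 2 were called (Fcer1g and Rac2, which the actin list also holds). Of all 13444 genes, 6932 were on the higher side there and 0.521% were called. The macrophage sum was 594 to 910, 863 to 1358 and 681 to 1126 TPM in the same order, and in Chd4-ECko all 11 tested macrophage genes were on the higher side, with Cx3cr1 called (1.60, limma adjusted p = 0.0056). The median log2 fold change in Chd4-ECko was 0.85 for the pan-leukocyte list and 0.89 for the macrophage list, beside 1.31 for the 10 genes. In Brg1/Chd4-ECdko these medians were 0.66, 0.58 and 1.55. The 10 genes were chosen for higher values in these libraries, which favours a larger median, so nothing is read from the gap to the marker lists. Genes of neutrophils and their progenitors had a median of -0.79 in Chd4-ECko. Erythroid genes were on the higher side for 8 of 8 in Chd4-ECko (median 0.62), but had a median of -0.08 in the double mutant. Megakaryocyte genes had medians of 0.22 and 0.15, and stem and progenitor genes of 0.27 and 0.56, with 0 called in either genotype. The mast cell and basophil sum was 0.446 to 1.76 TPM in control LSECs and 3.5 to 5.71 TPM in Chd4-ECko LSECs. Its mean was 3.58 times the control in Chd4-ECko and 1.77 times in the double mutant. In Brg1-ECko LSECs the mean of this sum was 3.26 times the control, with 0.570 to 7.89 TPM. These levels are low, and 2 of its 10 genes passed the filter in LSECs. The lymphoid sum was 3.33 to 5.30 TPM in control and 5.32 to 6.65 TPM in Chd4-ECko LSECs. The T cell gene Cd3e had at most 0.290 TPM in any LSEC library. The endothelial sum was 1419 to 1859 TPM in control and 1586 to 1804 TPM in Chd4-ECko LSECs. The part of these cells in the levels of the 10 genes was not tested.

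**Figure D5:**
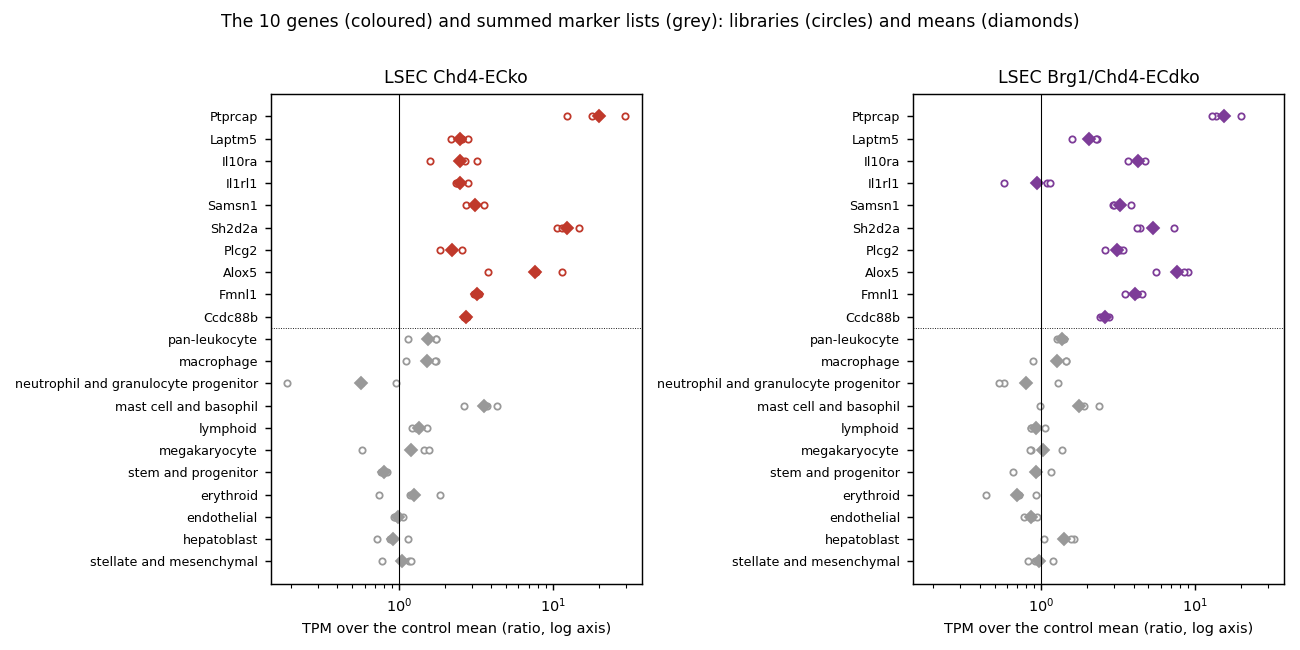
TPM in Chd4-ECko (left) and Brg1/Chd4-ECdko (right) LSEC libraries as a ratio to the mean of control LSECs, on a logarithmic axis, for the 10 genes (coloured) and the summed TPM of 11 marker lists (grey), with circles for libraries and diamonds for means (n = 3). In Chd4-ECko the 10 genes lie at ratios of 2.22 to 20.0, and the pan-leukocyte and macrophage sums at 1.55 and 1.53. The mast cell and basophil sum, at a low level, lies within the range of the 10 genes at 3.58. The 10 genes were chosen for higher values in these libraries, and a ratio of sums is not a ratio of single genes. Nothing is read from the gap between them.

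Of 13434 other genes tested in LSECs, those whose pattern over the 12 LSEC libraries was most like the mean pattern of the 10 were Was, Arhgap30, Il21r, Phldb3, Arhgap4, Vav1, Csf2rb and Ptpn6, with Pearson r from 0.978 for Was to 0.944 for Ptpn6. The 12 points share their genotype groups, so these values describe mostly the differences between groups. Among themselves, and after the group means were taken out, the 10 genes had a median pairwise correlation of 0.42 over the 12 LSEC libraries (45 pairs, -0.42 to 0.83), where the mean over all pairs was 0.34 and that over all pairs of tested genes 0.17. In nonEC cells the 9 tested genes had a median of 0.60 (36 pairs, -0.36 to 0.94) and a mean of 0.51, against 0.05 over all pairs of tested genes. In nonEC cells the closest pair was Il10ra with Plcg2 (0.94) and the lowest was Samsn1 with Ptprcap (-0.36). In LSECs Samsn1 with Ptprcap was at 0.76, and the lowest pair was Samsn1 with Sh2d2a (-0.42). The sums of the marker lists differed between libraries of a group, and the part of the mix of cells in these values was not tested. The correlations are descriptions without a test.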

How the data were processed

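Expression was measured in 24 libraries, 12 of LSECs and 12 of nonEC cells. The authors digested livers with transcription inhibitors, separated CD146-positive LSECs from nonEC cells with beads, selected poly-A RNA and aligned the reads to GRCm39 with CLC Genomics Workbench. The deposited values are TPM for each gene, and counts were not used here. How CLC treated strand and reads of several genes is not given in the sources used here. The 8 deposited columns of group means equalled the means of the replicates within 6.7e-06 TPM and were not used further. The study's methods name 1 nominal sequencing depth, but reads per library and per gene are not held in TPM, so no counting error is given. No 2 libraries held identical values. Libraries of a group correlated at 0.981 to 0.997 on the log2 scale.

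Each comparison used linear models of log2(TPM + 1) from limma (3.58.1, R 4.3.3), with 1 model per fraction and 1 of all libraries for the comparison of fractions, and variances moderated with a trend. Genes with at least 1 TPM in 3 libraries of a model entered (13444 in LSECs, 12223 in nonEC cells and 13775 over both). P-values are two-sided and adjusted by the Benjamini-Hochberg method over all genes tested. Genes were called at an adjusted p under 0.05 and a log2 fold change over 1 in size. Steps were tested on simulated data. Positions and promoter sequences came from GRCm39 with GENCODE annotation, matched by Ensembl identifier for 25335 of 25361 genes. Tables were read with data.table (version 1.17.8) and with pandas 2.3.3 in python 3.11.15 with numpy 2.4.6, and figures were drawn with matplotlib 3.10.9.

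The 10 genes, the pathway lists and the marker lists were chosen with earlier results of these data known. Named from each list were up to 4 genes called in Chd4-ECko or Brg1/Chd4-ECdko LSECs, else the most abundant up to 2, and the 8 genes most like the 10. The alternatives were a pseudocount of 0.1 TPM, no filter, a minimum mean of 5 TPM, normalization by quantiles, no trend, the replicate block, no fold threshold, fits of only the compared groups, leaving out single libraries and, for the counts of genes above all controls, TPM without mitochondrial genes. Same-numbered LSEC and nonEC libraries of 1 genotype deviated together from their group means in all 12 pairs (correlation 0.124 to 0.411 across genes), so the numbers in the labels pair these libraries in the comparison of fractions. A block of these pairs was added after seeing the data. Some genes and sequences are not reported here.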

Additional observations from a re-analysis of the deposited data

Results flagged for a closer look

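Il1rl1 and Samsn1 lay on opposite sides of the control in the 2 fractions of Chd4-ECko and of Brg1-ECko embryos, with every mutant LSEC library above every control and every mutant nonEC library below every control. In LSECs, 8.7% of all genes tested had all Chd4-ECko libraries above the controls, and 10.9% all Brg1-ECko libraries. In nonEC cells, all Chd4-ECko libraries lay below the controls for 11.6% of all genes tested, and all Brg1-ECko libraries for 2204 of 12223. In Chd4-ECko the log2 fold change in LSECs minus that in nonEC cells was 1.69 for Il1rl1 and 2.35 for Samsn1. In Brg1-ECko it was 1.32 for Il1rl1 and 1.41 for Samsn1. The difference between the fractions was not tested. No formal outlier test was made in groups of 3 libraries. The higher values in Chd4-ECko LSECs are what the genes were chosen for. The control LSECs used in that choice are also those of the Brg1-ECko comparison. In Brg1-ECko, Samsn1 in nonEC cells (-0.42, limma adjusted p = 0.256) did not pass the test. Il1rl1 in Brg1-ECko LSECs was at 0.25, which is a description only. In LSECs it reached 1 TPM in all 3 libraries of a group only in Chd4-ECko.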

How the results depend on the processing

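With each library left out in turn, the count of pathway genes called in LSECs ranged from 3 to 17 in Chd4-ECko and from 1 to 6 in Brg1/Chd4-ECdko, and that in Chd4-ECko nonEC cells from 0 to 5. In Brg1/Chd4-ECdko LSECs this count was 1 with quantile normalization and 9 without a fold threshold. In Chd4-ECko nonEC cells it was 2 with a pseudocount of 0.1 TPM and 8 without a fold threshold. The count of the 10 genes called in Chd4-ECko nonEC cells was 0 with a mean of at least 5 TPM, 2 without a fold threshold, 0 with the compared groups alone and 0 to 2 with a library left out. In Brg1-ECko nonEC cells it was 0 with a mean of at least 5 TPM and 0 to 1 with a library left out. The filter of 5 TPM leaves Il1rl1 untested, and the cause of the other changes was not tested. With a pseudocount of 0.1 TPM the 10 genes had medians of 1.53 (Chd4-ECko LSECs) and 1.84 (Brg1/Chd4-ECdko LSECs), as low genes then change more by construction. The median of Brg1/Chd4-ECdko against Chd4-ECko LSECs, -0.01, turned to 0.054 with a mean of at least 5 TPM and ranged from -0.19 to 0.093 with a library left out.

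Of single genes, Sh2d2a turned from 0.04 to -0.0085 in Brg1-ECko LSECs with quantile normalization (-0.038 to 0.11 with a library left out) and from 0.20 to -0.17 between fractions in Brg1-ECko. With a library left out, log2 fold changes near 0 in nonEC cells also changed sign. The ranges in Chd4-ECko were -0.26 to 0.079 for Ptprcap, -0.30 to 0.10 for Laptm5 and -0.35 to 0.095 for Plcg2. In Brg1-ECko they were -0.36 to 0.051 for Laptm5, -0.43 to 0.011 for Alox5 and -0.31 to 0.090 for Fmnl1. In Brg1/Chd4-ECdko they were -0.24 to 0.0098 for Ptprcap, -0.38 to 0.032 for Laptm5, -0.24 to 0.051 for Samsn1, -0.17 to 0.23 for Fmnl1 and -0.077 to 0.23 for Ccdc88b. None of these was called with all libraries. Over 77 values of single genes and 994 settings, 948 kept direction and side of the threshold (or moved by less than 1 SD where untested). Among tested values, 21 changed sign, 3 lost and 3 gained a call, and 19 untested values moved by more than 1 SD. The 948 include untested values near 0 that changed sign within that limit. Alox5 in Brg1/Chd4-ECdko against Chd4-ECko LSECs, at 0.08, ranged from -0.30 to 0.41 with a library left out. With TPM rescaled without mitochondrial genes, 10, 9 and 5 of the 10 genes had all Chd4-ECko, Brg1/Chd4-ECdko and Brg1-ECko LSEC libraries above the controls. Of the 8 genes most like the 10, 1 was shared when deviations from group means were correlated.

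Within a fraction, same-numbered libraries of different genotypes deviated together (correlation over 0.1) in 13 of 18 pairs in LSECs and 10 of 18 in nonEC cells. Differently numbered libraries did so in 8 of 36 pairs in either fraction. The mean correlations were 0.171 against -0.0852 in LSECs and 0.127 against -0.0667 in nonEC cells. What a number stands for is not given in the labels. The models of a fraction held no term for it, except in the replicate block. With the replicate block 1 of the genes was called in Chd4-ECko nonEC cells, and 6 in the comparison of fractions, as without it, and 6 with the block of LSEC and nonEC pairs. It moved no count of calls by over 1.5 times. The lack of read counts limits what can be said of Sh2d2a and Il1rl1, at or under 3 TPM in LSECs.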
